A study of Mus musculus with 12 samples.

Results

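The 9 genes Dlx1, Dlx2, Dlx5, Dlx6os1, Lhx6, Maf, Prox1, Npas1 and Adarb2 were followed across the inhibitory cell types of newborn mouse prefrontal cortex in 3 Myt1l genotypes. They were chosen as a named list of Dlx genes and interneuron identity genes, and all 9 were found among the 18879 genes of the cell by gene table. They were described in the 7 deposited cell types in which they are expected: the interneuron types Int1, Int2, Int3 and Int4, the Ganglionic eminences type (GE), and the types Striatal inh1 and Striatal inh2.

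Cells came from mice at postnatal day 0, of the strain C57BL/6J by the sample labels although the study's methods name the substrain C57BL/6N, that were wildtype (WT, Myt1l +/+), heterozygous (HET, +/-) or homozygous (HOM, -/-) for a CRISPR-made 7 bp deletion in Myt1l exon 6, a frameshift that ends in a stop at residue 78. The deletion is carried by every cell of a mutant animal, so no promoter or Cre line restricts it. Cells of 2 animals per genotype were pooled into 1 droplet library, and each library was sequenced in 4 runs, which gives 12 samples but only 1 library per genotype. The files do not tie cells to animals, so no test of a genotype difference was possible, and every difference described here compares single libraries.

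The dorsal excitatory neurons of the cortex are born locally, whereas its GABA-releasing interneurons are born in the ganglionic eminences of the ventral forebrain and migrate in. The Dlx genes encode homeodomain transcription factors, arranged in the genome as linked pairs, that drive this inhibitory programme and the migration. Lhx6 and Maf mark interneurons from the medial eminence, which go on to make somatostatin or parvalbumin, and Prox1, Npas1 and Adarb2 mark interneurons from the caudal eminence.

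The level of a gene is its summed value over the cells of a library and type, divided by the sum over all genes and given in parts per 1000000 (ppm). The value is a whole number that was already corrected for cell depth, not a raw count. The share is the percent of cells with a value above 0, given with an exact 95% interval (Clopper-Pearson) that covers counting error only.

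The libraries held 10503 WT, 12072 HET and 13688 HOM cells, with a median of 1045, 1099 and 1330 molecules per cell, and the 7 types made up 25.0 to 27.3% of each library. The study's figure legend assigns the same cell numbers to the genotypes in another order, so genotypes are used here as the deposited cell names and sample labels give them. Myt1l transcript cannot check the labels, because a small deletion leaves the transcript in place. Its level in Int1 was 329 ppm in WT, 511 in HET and 866 in HOM. Xist, transcribed only from the inactive X of females, was found in 2121 WT cells but in 2 HET cells and 1 HOM cell, while Y-linked transcripts were found in all 3 libraries, so the sex of the animals differed between WT and the mutants. A total of 645 cell barcodes occurred in 2 libraries and 3 barcodes in all 3, and without them the counts of member pairs changed by at most 1.

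The 7 types carried GABA markers at unequal levels. Gad2, a GABA-synthesising enzyme, lay at 470 ppm in Int1, 354 in Int3, 615 in Int4 and 621 in Striatal inh2 of the WT library. It was lower in Int2, at 170 ppm, where the median cell held only 806 molecules in WT. For 5 genes of GABA synthesis, packaging and uptake, the summed level was lowest of the 7 types in GE. It was 347 ppm there in WT, 389 in HET and 323 in HOM. Astrocytes (immature) 2 gave 383, 356 and 385 ppm, so GE did not stand clear of that type. Striatal inh1 lay at 645 to 754 ppm. Slc17a7, the vesicular glutamate transporter of excitatory neurons, reached no more than 25.6 ppm in any of the 7 types.

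At least 1 of the 4 Dlx members was found in 77.3% (73.7 to 80.5) of WT Int4 cells, with a median of 1196 molecules per cell. The WT shares were 75.9% in Int3, 64.5% in Int1, 78.5% in Striatal inh2, 39.7% in GE, 31.1% in Striatal inh1 and 24.1% in Int2. In the upper-layer excitatory type LayerII-IV [1-P], which should lack the genes and had a median of 1047 molecules, the share was 6.05% (5.01 to 7.22). All 7 inhibitory types therefore stood above the level found in a type that should lack these genes. Of the summed value of the individual Dlx members, 87.4 to 91.5% lay in the 7 types in the 3 libraries.

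Dlx1 and Dlx2 are convergent neighbours 9426 bp apart on chromosome 2 (GRCm38), with Dlx1 at chr2:71528113-71533981 on the plus strand and Dlx2 at chr2:71543408-71546754 on the minus strand. Over the 3 libraries, Dlx1 lay at 826 to 1266 ppm in Int4 and at 927 to 1134 in Int3, ranges that overlapped. It was next at 451 to 728 in GE and 463 to 499 in Int1, which overlapped too, then at 213 to 329 in Striatal inh2 and 117 to 201 in Int2. Dlx2 was highest in Int4, at 518 to 668 ppm, above GE at 337 to 412, Int3 at 353 to 389 and Int1 at 315 to 348. The 2 genes followed nearly the same order of types: the Spearman correlation of their levels over 18 types was 0.95, as a description of types that share libraries. They were also found in the same cells of a type: in Int4, 65.8% of WT, 60.1% of HET and 61.7% of HOM cells with Dlx1 above 0 had Dlx2 above 0, against 21.0, 12.7 and 14.9% of cells with Dlx1 at 0. Both genes were found more often in deep cells.

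Dlx5 and Dlx6os1 sit on chromosome 6. Dlx5 (chr6:6877805-6882085, minus strand) is the homeodomain partner of Dlx6, and Dlx6os1 (chr6:6820189-6871592, minus strand), also called Evf2, is a long noncoding RNA whose gene spans all 5235 bp of Dlx6 on the opposite strand without sharing exon sequence. Dlx5 was highest in Int4, at 449 to 479 ppm, then in Striatal inh2 at 348 to 416. In the other 5 types it lay between 64.7 and 219.5 ppm. Dlx5 thus stood high in a striatal type in which Dlx1, at 213 to 329 ppm, lay below Int4, Int3, GE and Int1. Dlx6os1 lay at 652 to 1156 ppm in Int4, at 721 to 809 in Int3 and at 456 to 517 in Striatal inh2. In Int4, 84.9% of WT cells with Dlx5 above 0 had Dlx6os1 above 0, against 36.8% of cells with Dlx5 at 0. Dlx6 itself was sparse, and its summed value over all cells came to 108 (WT), 93 (HET) and 104 (HOM). Dlx3 and Dlx4 had no row in the table.

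Promoter sequence (250 bases before to 50 after each start) was taken from RefSeq on GRCm38.p6 for the 7 members that matched, with 11 promoters in all, and both strands were searched. TAATTA, the core that homeodomain proteins such as the Dlx factors bind, occurred in 3 of the 11 member promoters and in 5.29% of 32851 mouse promoters. AAAGTT, the core bound by MYT1L, occurred in 1 of the 11, 1 of the 3 Lhx6 promoters, and in 14.1% of all promoters. The stretches that hold them are shown because they place both motifs among the members, with the motif in capitals and the sequence in the sense of the gene. The windows are chr6:6861830-6861879 and chr6:6869580-6869685 (minus strand) for both Dlx6os1 promoters, chr13:8202793-8202842 (plus strand) for Adarb2 and chr2:36104061-36104107 (minus strand) for Lhx6 promoter 1.
Dlx6os1 promoter 1: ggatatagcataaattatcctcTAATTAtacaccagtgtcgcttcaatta
Dlx6os1 promoter 2: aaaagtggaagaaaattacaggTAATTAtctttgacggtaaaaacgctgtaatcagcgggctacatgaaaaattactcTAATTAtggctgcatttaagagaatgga
Adarb2: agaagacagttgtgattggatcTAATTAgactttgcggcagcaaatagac
Lhx6 promoter 1: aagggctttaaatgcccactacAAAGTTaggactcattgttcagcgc
The homeodomain core lay 173 bases before the start of Dlx6os1 promoter 1, 129 and 73 bases before that of promoter 2 and 50 bases before that of Adarb2. The MYT1L core lay 24 bases before the start of Lhx6 promoter 1, the innermost of the 3 Lhx6 starts, which lies inside the gene. Each distance is counted from the first base of the motif to the last base before the start. A match is a run of letters, not evidence of binding.

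**Figure D1:**
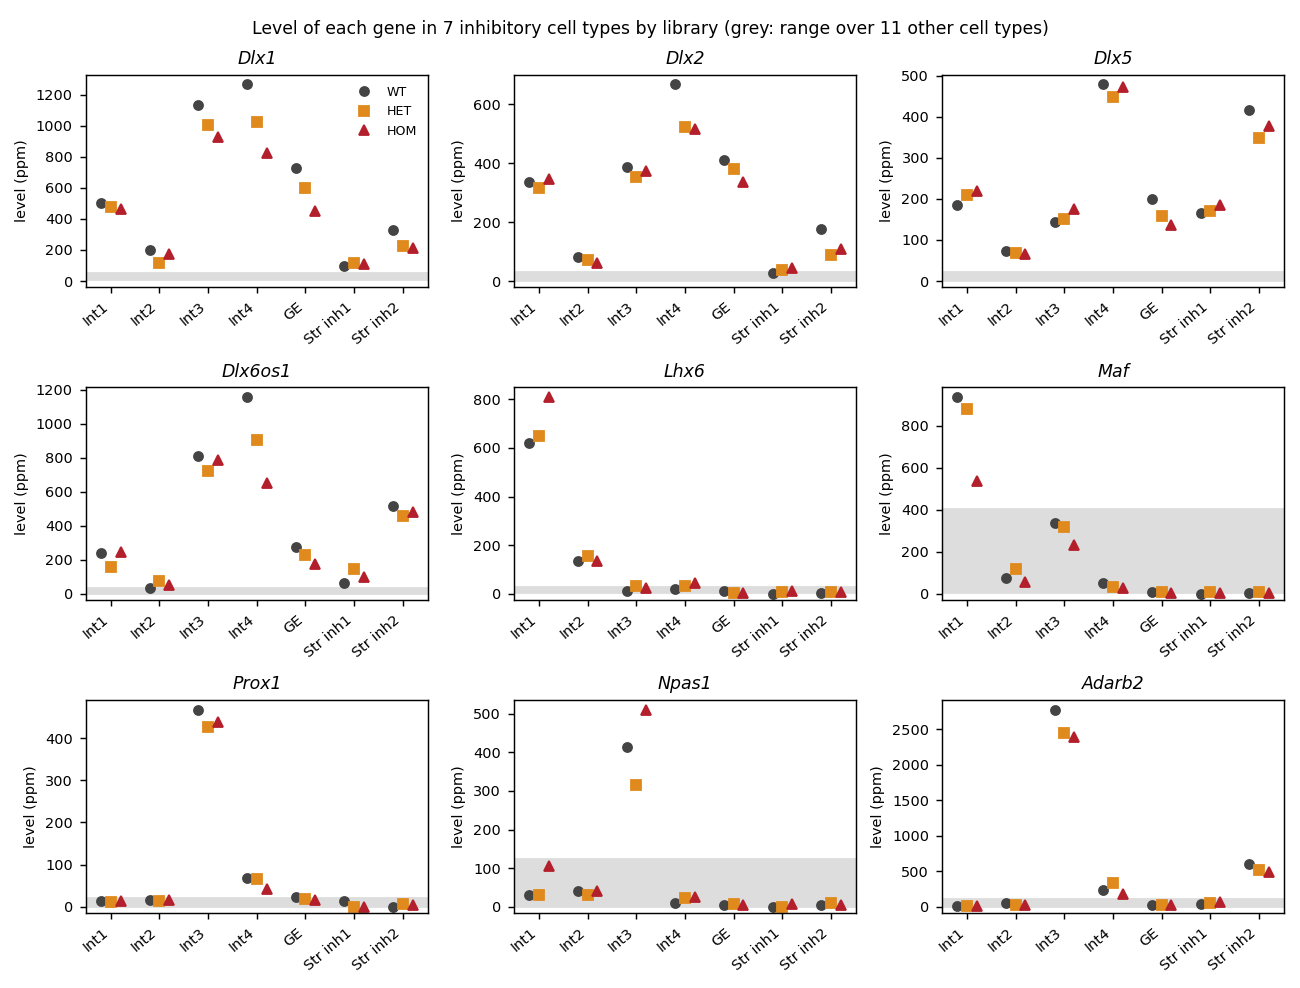
Level (ppm, per 1000000) of each of the 9 genes on the vertical axis in 7 inhibitory cell types on the horizontal axis, with 1 point per library (WT circles, HET squares, HOM triangles) and no error bars because each genotype is 1 library; the grey band spans the levels in 11 other cell types. Lhx6 and Maf peak in Int1, Prox1, Npas1 and Adarb2 in Int3, and the 4 Dlx members in Int4 or Int3, and the grey band reaches 403 ppm for Maf at microglia.

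Lhx6 (chr2:36081953-36105408), a LIM homeodomain factor needed for medial eminence interneurons, was highest in Int1. Its level there was 621 ppm in WT, 648 in HET and 808 in HOM. Int2 followed at 135 to 154 ppm, and the remaining 5 types of this group stayed at or below 44.1. Maf (chr8:115682942-115707794), a bZIP factor of the same lineage, was also highest in Int1, at 536 to 936 ppm, but lay at 235 to 337 in Int3 as well. Outside the interneurons Maf lay at 257 to 403 ppm in microglia, which also use this factor. Among WT Int1 cells, Maf was above 0 in 73.3% of those with Lhx6 above 0 and in 51.5% of the others.

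Prox1, Npas1 and Adarb2 all peaked in Int3. Adarb2 (chr13:8202866-8768747), an RNA editing enzyme homologue, lay at 2391 to 2770 ppm in Int3, at 493 to 599 in Striatal inh2 and at 176 to 332 in Int4. Prox1 (chr1:190118035-190170714), a homeodomain factor, lay at 427 to 466 ppm in Int3 and at no more than 67.9 in every other type with 100 cells per library. Npas1 (chr7:16455721-16477728), a bHLH-PAS repressor, lay at 316 to 509 ppm in Int3, with oligodendrocytes next at 58.0 to 123. In Int1, Adarb2 was as rare in cells with Lhx6 (1.57% in WT, 1.37% in HET and 1.34% in HOM) as in cells without it (2, 0.816 and 1.35%), so within this type the 2 labels showed no separation beyond the type itself. In Int3, Adarb2 was found in 75.9% of WT, 77.9% of HET and 80.5% of HOM cells with Prox1, against 43.7, 37.9 and 38.2% of cells without Prox1, and deep cells hold both more often.

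By the order of levels over 18 types, the genes most like each member, by Spearman correlation with no test, were as follows. Dlx1 was most like Dlx2 (0.95), Nrxn3 (0.93) and Sox2ot (0.91). Dlx2 was most like Dlx1, Dlx5 (0.90) and Nrxn3 (0.88), and Dlx5 was like Dlx2 and Nrxn3 (0.86). Dlx6os1 had Dlx6 (0.87), Gm14204 (0.86) and Gad1 (0.84), so the Dlx members were mostly matched by each other and by inhibitory genes. Lhx6 had Maf (0.83), Smim4 (0.77) and Slc35c2 (0.76), and Maf had Sst (0.85), Lhx6 and Cd34 (0.82). Prox1 had Dlx1 and Dlx2 (both 0.81) and Dmrtb1 (0.79), Npas1 had Coprs (0.80), Elfn1 and Elfn2 (both 0.79), and Adarb2 had Slc36a4 (0.88), Sco1 (0.84) and Pknox1 (0.83). The choice of measure matters here, because the 3 genes most like a member by Pearson correlation included none of these for 5 of the 9 members (Dlx6os1, Lhx6, Maf, Prox1 and Adarb2).

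To ask how the members differed between genotypes, levels were compared as a ratio to WT in every type with at least 100 cells per library and a summed value of at least 50 over both libraries. A gene in a type is called a pair here, and a ratio of at least 1.5-fold was set as the threshold for calling it higher or lower. In HET, 3 of 39 member pairs were higher, against 6.03% of all 26147 pairs, and 4 were lower, against 7.27%. In HOM, 1 of 39 pairs was higher, against 7.65% of all 28362 pairs, and 9 were lower, against 12.6%. The share of members called lower was thus 10.3% in HET, near the background, and 23.1% in HOM. Of the 9 lower pairs in HOM, 4 lay in Int4 and 2 in GE, the types with the highest share of all compared genes called lower (19.9% and 17.9%). Pairs of a type share cells and both comparisons share the WT library, so these counts are descriptions.

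Without a threshold, 10 of 39 member pairs (25.6%) lay above WT in HET, where 51.1% of all pairs did, and 10 of 39 in HOM, where 46.5% did. The median log2 ratio of the members was -0.14 in HET (0.01 for all genes) and -0.20 in HOM (-0.04 for all genes). Of the 38 pairs compared in both, 18 followed the order WT above HET above HOM and 4 the opposite order. The same count was not taken over all genes, so these counts have no background to be set against. The small downward shift depends on the cells taken from WT: without cells that hold Xist, 50% of the member pairs lay above WT in HET and 36.8% in HOM. Leaving those cells out also lowers the depth of WT, whose median in GE fell from 3544.5 to 1558 molecules, and levels rise with depth: in Int4 of WT, Dlx1 was 729 ppm in cells under 1000 molecules and 1925 ppm in cells with at least 3000. Levels also differed inside WT between cells with Xist and cells with a Y-linked transcript, in both directions: the log2 ratio of the former to the latter was 0.69 for Dlx1 in GE (144 and 40 cells), 0.15 in Int4 (146 and 55) and -0.95 in Int1 (128 and 28), and 0.39 for Maf in Int1.

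**Figure D2:**
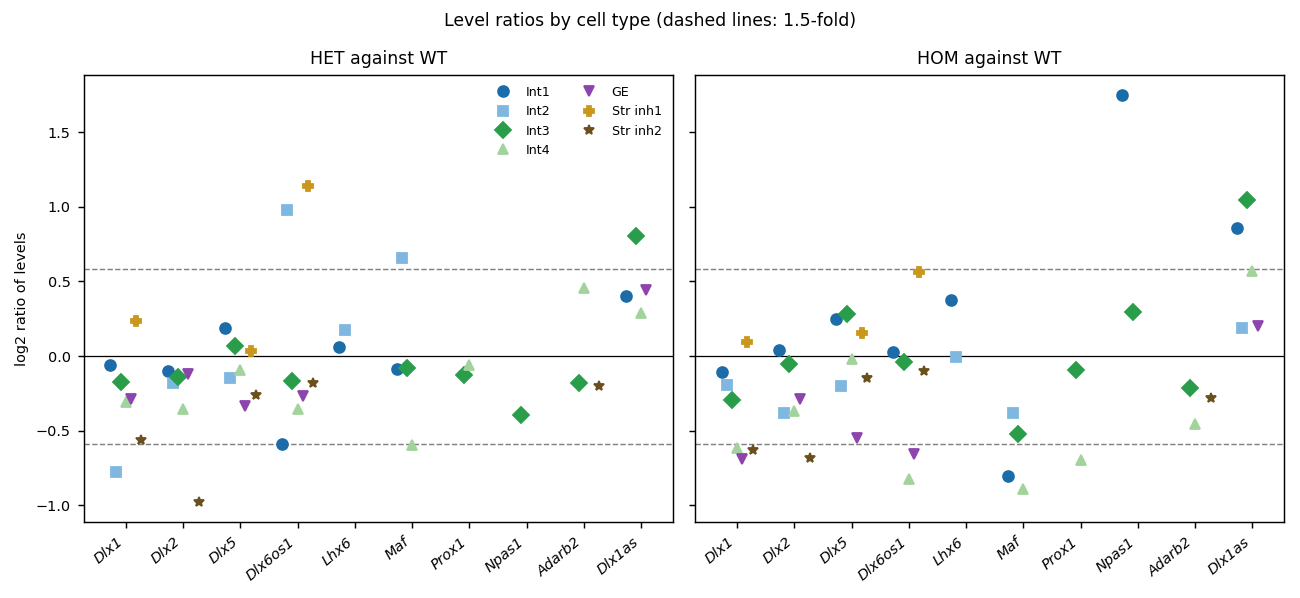
Log2 ratio of the level in HET (left) and HOM (right) to that in WT on the vertical axis for the 9 members and Dlx1as on the horizontal axis, with 1 symbol per cell type and dashed lines at 1.5-fold; ratios of single libraries carry no error bars. Most Dlx symbols lie between the dashed lines, and Npas1 in Int1 of HOM is the highest point at 1.75.

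Dlx1 in Int4 and GE followed the order WT above HET above HOM. In Int4 its level was 1266 ppm in WT, 1021 in HET and 826 in HOM. WT was highest and HOM lowest, with a log2 ratio of -0.31 in HET and -0.62 in HOM. In GE the levels were 728, 597 and 451 ppm, in the same order, with a HOM log2 ratio of -0.69. In Int3 they were 1134, 1005 and 927 ppm, and in Int1 499, 478 and 463, so the order was the same in these types but the HOM ratios, -0.29 and -0.11, stayed inside the threshold. Int2 did not follow this order: Dlx1 there was 201 ppm in WT, 117 in HET and 176 in HOM, which gave a HET log2 ratio of -0.78. The order in Int3 and Int1 depended on the cells taken. Without Xist cells Dlx1 was 962, 1005 and 927 ppm in Int3, and 553, 478 and 463 in Int1. With at least 3000 molecules it was 1631, 1749 and 1485 ppm in Int3, and 577, 558 and 560 in Int1. With at least 2000 molecules the order held in both types.

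Dlx2 in Int4 was 668 ppm in WT, 524 in HET and 518 in HOM, so both mutants lay below WT by less than 1.5-fold. Its called pairs were in Striatal inh2, at 177 ppm in WT, 89.8 in HET (log2 ratio -0.98) and 110.0 in HOM (-0.68). Dlx1 in that type was 329, 223 and 213 ppm, so the pair of neighbours was lower together in this striatal type, but without WT cells that hold Xist the HOM log2 ratios of -0.40 for Dlx1 and -0.36 for Dlx2 stayed inside the threshold. The HET log2 ratio of Dlx2 stayed past it without those cells, at -0.66. Inside WT, Striatal inh2 cells with Xist lay above those with a Y-linked transcript by log2 1.34 for Dlx1 and 0.81 for Dlx2 (64 and 68 cells). Among Striatal inh2 cells with a Y-linked transcript and no Xist, Dlx1 was 207 ppm in WT, 203 in HET and 192 in HOM. Dlx2 among them was 179, 99.6 and 92.6 ppm, so Dlx1 lay close in the libraries and Dlx2 was lower in both mutants. Dlx5, in contrast, differed little: 479, 449 and 474 ppm in Int4, and 416, 348 and 377 in Striatal inh2, with no pair called in either mutant. In GE, however, Dlx5 was 199 ppm in WT, 158 in HET and 137 in HOM, ordered like Dlx1 in that type, with log2 ratios of -0.34 and -0.55 just inside the threshold.

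Dlx6os1 showed the largest spread of ratios of the Dlx members. In Int4 it was 1156 ppm in WT, 906 in HET and 652 in HOM, that is a HOM log2 ratio of -0.83. In GE it was 278, 231 and 176 ppm, with a HOM ratio of -0.66. These are the same types in which Dlx1 was lower. In Striatal inh1 it was 66.4 ppm in WT, 146 in HET and 98.4 in HOM, and in Int2 37.1, 73.0 and 49.6, so there HET was highest. The WT levels in Striatal inh1 and Int2 rest on summed values of only 14 and 12, and in Int1 the HET level of 159.9 ppm was below both WT (240.3) and HOM (245).

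The lower Dlx levels of HOM in Int4 and GE moved together with other measures of the cells. In Int4 the median molecules per cell were 1196 in WT, 1527 in HET and 913 in HOM. Among Int4 cells with at least 3000 molecules, Dlx1 was 1925 ppm in WT, 1650 in HET and 1582 in HOM, so the order remained and the gap narrowed, and with at least 2000 molecules the HOM log2 ratio was -0.27 for Dlx1 and -0.46 for Dlx6os1, inside the threshold. The summed level of the 11 progenitor genes in Int4 was 2902 ppm in WT, 1884 in HET and 2071 in HOM, and that of 5 astrocyte and radial glia markers was 989, 1368 and 1981. Without Xist-holding cells the HOM log2 ratio was -0.49 for both genes, and in the few Int4 cells with a Y-linked transcript Dlx1 was 1385 ppm in WT, 1155 in HET and 1202 in HOM, so HOM was not lowest, while Dlx6os1 was 1472, 1039 and 967, with HOM lowest. Dlx2 and Dlx5 gave no such order in deep Int4 cells: with at least 2000 molecules Dlx2 was 925, 775 and 984 ppm, and Dlx5 759, 674 and 888. Int4 made up 5.82% of all WT cells, 3.95% of HET cells and 2.89% of HOM cells. The part of these differences in the Dlx levels was not tested.

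GE cells differed in the level of oligodendrocyte lineage markers. The summed level of 5 markers of that lineage (Olig1, Olig2, Pdgfra, Sox10, Mbp) was 786 ppm in WT, 1232 in HET and 2347 in HOM, and 66.4, 54.5 and 39.3% of the GE cells had none of them. Among the GE cells without any of the 5 markers, Dlx1 was 964 ppm in WT, 982 in HET and 908 in HOM. Dlx2 among them was 547, 587 and 695 ppm, and the share of cells with a Dlx member was 49.7, 49.5 and 56.0%. Over the whole GE type, 39.7, 34.0 and 29.2% of cells had a Dlx member. That order was not seen in GE cells at 0 for the oligodendrocyte lineage markers, a subset chosen after the data were seen. Olig2 is also on the list of progenitor genes, and the filter kept unequal shares of the GE cells in the libraries. The part of the cells with these markers in the lower Dlx levels was not tested. Without WT cells that hold Xist, the HOM log2 ratio over the whole GE type was -0.34 for Dlx1 and -0.16 for Dlx6os1. The WT cells left were shallower, at a median of 1558 molecules against 6050 in HOM. Among GE cells with at least 2000 molecules Dlx1 was 999 ppm in WT, 825 in HET and 563 in HOM. Without Xist cells as well it was 857, 825 and 563 ppm, and Dlx6os1 was 331, 324 and 219, so HOM was lowest for both. Among GE cells with a Y-linked transcript Dlx1 was 708 ppm in WT, 567 in HET and 746 in HOM. Within a type defined by clustering, fewer Dlx cells and less Dlx transcript per cell cannot be told apart from the summed level alone.

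The antisense gene of Dlx1 moved the other way. Dlx1as (chr2:71516454-71537891, minus strand) belongs to the Dlx family list but not to the 9 members, and it spans all 5869 bp of Dlx1, with 335 bp of shared exon sequence. Its level in Int1 was 408 ppm in WT, 540.4 in HET and 741 in HOM. WT was lowest and HOM highest, with log2 ratios of 0.41 and 0.86. In Int3 it was 222, 387 and 459 ppm, with log2 ratios of 0.80 and 1.05, and in Int4 190.1, 232 and 282 (0.29 and 0.57). In GE it was 88.6, 121 and 102 ppm, where HET was highest. Outside the 7 types Dlx1as was low but also higher in the mutants where it was compared. In LayerII-IV [1-P] it was 10.5, 15.6 and 17.4 ppm (log2 ratios 0.57 and 0.72). In Astrocytes (immature) 2, compared in HOM only, it was 12.3 ppm in WT and 19.1 in HOM (0.63).

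The ratio of summed Dlx1as to summed Dlx1 is taken within a library and does not depend on how libraries were scaled. It was compared within each type, because the types differ in this ratio and in their share of each library. An order of WT below HET below HOM held in Int1 (0.817, 1.13 and 1.6), Int3 (0.195, 0.385 and 0.495), Int4 (0.150, 0.227 and 0.341) and GE (0.122, 0.202 and 0.226), while Int2 gave 0.308, 0.410 and 0.402. Among cells with at least 2000 molecules it was 0.938, 1.25 and 1.65 in Int1, 0.214, 0.349 and 0.529 in Int3 and 0.18, 0.205 and 0.353 in Int4, so the order remained in these 3 types. Among cells that held a Y-linked transcript it was 0.75, 1.16 and 1.71 in Int1 and 0.245, 0.351 and 0.468 in Int3. Inside WT the ratio in Int1 was 1.07 for cells with Xist against 0.75 for those with a Y-linked transcript, both below the 1.6 of HOM, although the former was close to the 1.13 of HET. In the Y-linked subset of Int4 the ratio was 0.171, 0.212 and 0.195, from summed Dlx1as values of 19, 38 and 16, and in that of GE 0.103, 0.220 and 0.190, from 4, 11 and 11, and in both HOM was not highest. Whether the counting separated the strands was not stated in the sources used here, so reads from the shared exon stretch could belong to either gene. Dlx1as was not chosen as a member and was taken up after its values were seen.

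**Figure D3:**
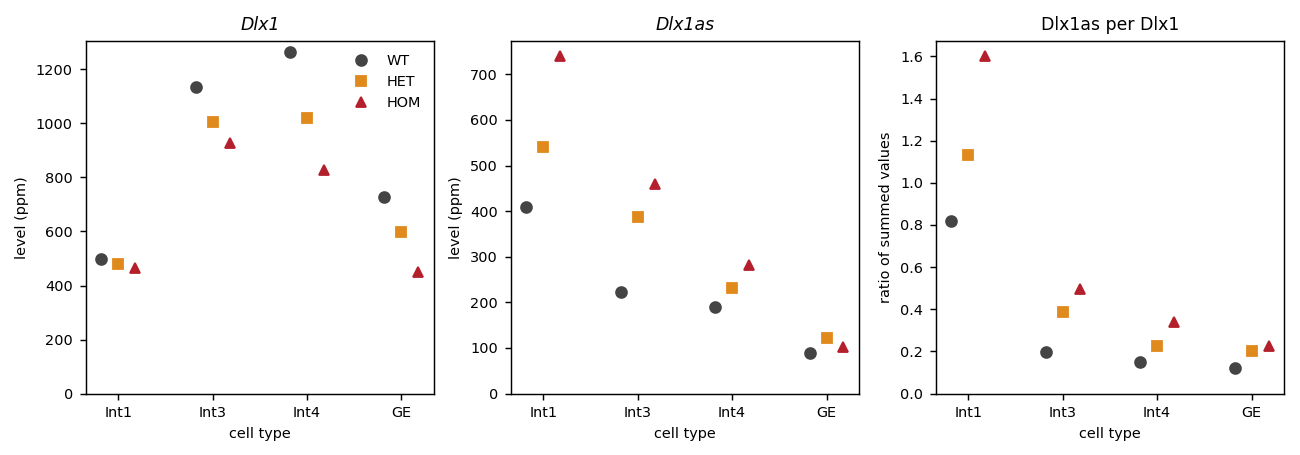
Level (ppm) of Dlx1 (left) and of Dlx1as (middle) and the ratio of their summed values (right) on the vertical axes in Int1, Int3, Int4 and GE on the horizontal axes, with 1 point per library. Over all cells, Dlx1 falls from WT to HOM in each type while the ratio rises from WT to HOM, in Int1 from 0.817 to 1.6.

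In Int1, the medial eminence type, Lhx6 and Maf went in opposite directions in HOM. Lhx6 was 621 ppm in WT, 648 in HET and 808 in HOM (log2 ratio 0.38), inside the threshold. The share of Int1 cells with Lhx6 was 48.8% in WT (43.8 to 53.9), 54.3% in HET (50 to 58.6) and 63.8% in HOM (60.4 to 67.1), while median molecules were 1915, 2613.5 and 3027 per cell. In the Striatal inh2 type, which was deeper in each library and should lack Lhx6, the share was 0.294, 0.994 and 0.939% at medians of 3053.5, 3107 and 3261 molecules. Maf in Int1 was 936 ppm in WT, 882 in HET and 536 in HOM, so WT and HET lay close and HOM was 1.75-fold lower (log2 ratio -0.80). The share of Int1 cells with Maf was 62.1% in WT (57.1 to 67.0), 64.7% in HET (60.5 to 68.8) and 49.0% in HOM (45.6 to 52.5), although HOM cells were the deepest, and in Striatal inh2 it was 0.588 to 1.19%.

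Other measures of Maf in Int1 were also lower in HOM, by differing amounts. The mean value among Int1 cells with Maf was 1.86 in WT, 1.72 in HET and 1.39 in HOM. Among cells with at least 3000 molecules the level was 1266 ppm in WT, 1026 in HET and 624 in HOM. Among Int1 cells with Lhx6 above 0, Maf was found in 73.3% in WT, 71.8% in HET and 56.4% in HOM, and among those with at least 2000 molecules in 87.1, 81.9 and 60.8%. Under the other scalings, and with cells filtered by molecules (at least 2000), Xist, type probability or excitatory markers, the HOM log2 ratio ran from -0.74 to -0.96. It was smaller in some subsets: among the Int1 cells that held a progenitor gene, Maf was 529 ppm in WT (51 cells), 712 in HET and 509 in HOM. In the cells that held a Y-linked transcript, Maf in Int1 was 772 ppm in WT, 1003 in HET and 509 in HOM, so HOM was lowest there too, but only 28 such WT cells were counted and WT no longer exceeded HET. Maf was also lower in HOM in Int3, at 337, 318 and 235 ppm (log2 ratio -0.52), in Int4, at 53.0, 35.0 and 28.6 (-0.60 in HET and -0.89 in HOM), and in microglia, at 403, 346 and 257 (-0.65). In Int2 the order was another, with Maf at 74.2 ppm in WT, 117 in HET (log2 ratio 0.66) and 57.1 in HOM. The Int4 levels of Maf rest on summed values of only 39, 21 and 13. Types with still lower Maf were also lower in HOM, by -0.85 in Astrocytes (immature) 2 (32.7, 17.7 and 18.1 ppm) and -0.68 in LayerII-IV [1-P]. Beside the lower Maf level of HOM in Int1 stands the difference inside WT, where Int1 cells with Xist had a Maf level of 1011 ppm and those with a Y-linked transcript 772.

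Npas1 was the member with the largest ratio. In Int1 it was 31.1 ppm in WT, 31.1 in HET and 104 in HOM, from summed values of 15, 21 and 109. WT and HET were equal and HOM stood apart, with a log2 ratio of 1.75. The share of Int1 cells with Npas1 was 3.32% in WT (1.78 to 5.62), 3.36% in HET (2.00 to 5.26) and 8.54% in HOM (6.71 to 10.7), against 0.588, 1.19 and 0.626% in Striatal inh2. Cells with Lhx6 above 0 carried the difference: 2 of 191 in WT, 7 of 291 in HET and 52 of 523 in HOM had Npas1, which is 1.05% (0.127 to 3.73), 2.41% (0.972 to 4.89) and 9.94% (7.52 to 12.8). Among Int1 cells with Lhx6 at 0 the shares were 5.50, 4.49 and 6.06%, with overlapping intervals.

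With at least 2000 molecules, the Npas1 shares among Lhx6 cells of Int1 were 1.61% in WT, 3.43% in HET and 11.2% in HOM. Under the same scalings and filters as for Maf, the HOM log2 ratio of Npas1 in Int1 ran from 1.56 to 1.81, but smaller subsets gave other values. Among Int1 cells under 1000 molecules, Npas1 was 31.3 ppm in WT, 56.5 in HET and 22.7 in HOM, so HOM was lowest there, and with at least 3000 molecules it was 42.7, 35.7 and 159. In the cells that held a Y-linked transcript, the Npas1 levels of Int1 were 22.7, 18.2 and 39.7 ppm from 28 WT, 115 HET and 194 HOM cells, so HOM was again highest with few values behind it. Without Xist cells and with at least 2000 molecules, Npas1 in Int1 was 60.4 ppm in WT (96 cells), 29.3 in HET and 132 in HOM, a smaller gap between WT and HOM than over all cells. Adarb2, another caudal label, was found in 1.57, 1.37 and 1.34% of the Lhx6 cells of Int1, so HOM did not stand apart for it. In Int3, where Npas1 is at home, it was 415 ppm in WT, 316 in HET and 509 in HOM, so HET was lowest and HOM highest, inside the threshold.

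**Figure D4:**
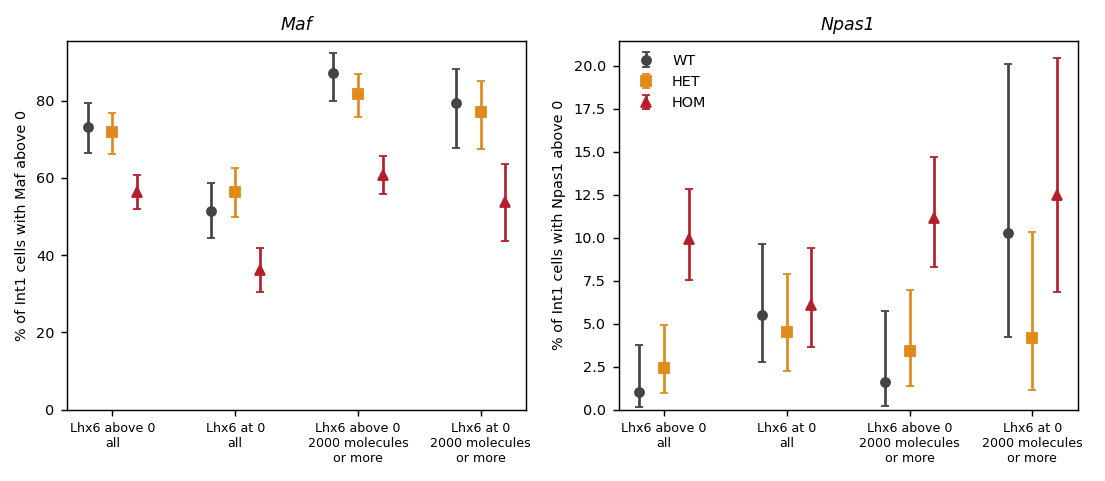
Percent of Int1 cells with Maf (left) and Npas1 (right) above 0 on the vertical axes, split on the horizontal axes by whether Lhx6 was above 0, for all cells and for those with at least 2000 molecules; bars are exact 95% intervals that cover counting error only. Among Lhx6 cells, HOM is lowest for Maf (56.4%) and highest for Npas1 (9.94%).

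The other caudal eminence genes differed little in their home type. Prox1 in Int3 was 466 ppm in WT, 427 in HET and 438 in HOM, and Adarb2 2770, 2447 and 2391, all within 1.5-fold of WT. In Int4 Prox1 was 67.9, 65.1 and 41.9 ppm, with a HOM log2 ratio of -0.70, and only 17 HOM cells held it. Among Int4 cells with at least 2000 molecules Prox1 was 57.1, 60.8 and 67.8 ppm, so HOM was highest there. Adarb2 in Int4 was 242 ppm in WT, 332 in HET and 176 in HOM, so HET was above and HOM below WT. This order did not hold without Xist cells, where the log2 ratio became 1.44 in HET and 0.52 in HOM. In Striatal inh2 Adarb2 was 599, 521 and 493 ppm, a difference inside the threshold.

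Lists of genes that act with the members gave the setting. The 14 genes that partner with Dlx factors or guide interneuron migration had 1 pair higher and 14 lower of 58 in HET, where 6.03% of all pairs were higher and 7.27% lower, and 1 higher and 14 lower of 61 in HOM, where 7.65% were higher and 12.6% lower. The list had median log2 ratios of -0.27 and -0.30 against 0.01 and -0.04 for all genes. Of the 13 genes compared, the mean ratio was above WT for 1 in HET and 2 in HOM. This list and those below were not counted again without Xist cells or in deeper cells, settings that changed the counts of the members. Zeb2, a zinc finger factor that directs interneurons to the cortex and is a target of Dlx control, was 737 ppm in Int3 of WT, 541 in HET and 449 in HOM, and its mean log2 ratio over 6 types was -0.34 in HET and -0.77 in HOM. Sp9, a zinc finger factor, had a mean log2 ratio of -0.53 in HET over 5 types. Plxna4, a semaphorin receptor subunit (mean -0.68 over 5 types), and Cxcr4, a chemokine receptor used in migration (-0.66 in Int1 alone), were lower in HOM, and Gria1, a glutamate receptor subunit, had a mean of -0.35 in HET.

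The genes of GABA synthesis, packaging and uptake showed no such direction, with 1 pair higher and 2 lower of 31 in HET and 2 higher and 2 lower of 32 in HOM. The background for this and the next lists is the share over all pairs. That was 6.03% higher and 7.27% lower in HET, and 7.65% higher and 12.6% lower in HOM. Gad2 lay at 470 ppm in Int1 of WT, 551 in HET and 548 in HOM. Abat, which breaks GABA down, had a mean log2 ratio of 0.08 in HET and 0.33 in HOM. Of the medial eminence list, 3 pairs were higher and 3 lower of 29 in HET, and 5 and 5 of 30 in HOM. Its named genes were Satb1 (mean log2 ratio -0.44 in HET and -0.38 in HOM) and the neuropeptides Npy (0.24 and 0.65) and Sst (-0.76 in HOM). Sst was highest in Int2, at 1881 ppm in WT, 1704 in HET and 1043 in HOM. Of the caudal list, 1 pair was higher and 3 lower of 23 in HET, and 3 and 5 of 27 in HOM, with Reln (-0.86) and Nr2f2 (-0.78) lowest in HET, and Cck at 0.61 and Sp8 at -0.57 in HOM.

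Of the genes of ganglionic eminence progenitors, 5 pairs were higher and 4 lower of 18 in HET, and 3 and 3 of 18 in HOM. Among all pairs, 6.03% were higher and 7.27% lower in HET, and 7.65% were higher and 12.6% lower in HOM. Hes5, a Notch effector of dividing progenitors and glia, was 266 ppm in GE of WT, 463 in HET and 929.8 in HOM, the opposite order to Dlx1 in the same type. The olfactory bulb list shares Sp8 and Sp9 with the lists above and had 1 pair higher and 9 lower of 24 in HOM (median log2 ratio -0.44), and 2 higher and 1 lower of 22 in HET. The striatal projection neuron list had 6 pairs higher and 5 lower of 37 in HET, and 4 and 3 of 38 in HOM.

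Markers of other cells were measured in the same 7 types, where 6.03% of all pairs were higher and 7.27% lower in HET. In HOM 7.65% of all pairs were higher and 12.6% lower. Blood markers were higher in HOM in 12 of 28 pairs and lower in none, with a summed level in Int1 of 1054 ppm in WT, 755 in HET and 1399 in HOM. Astrocyte and radial glia markers were higher in 8 of 15 pairs in HOM and in 3 of 13 in HET, and oligodendrocyte lineage markers in 4 of 6 and 1 of 5. Excitatory markers were higher in 1 of 9 pairs and lower in 1 in HOM, and lower in 1 of 6 pairs in HET. No microglia marker reached the minimum sum in the 7 types, endothelial and mural markers were higher in 1 of 3 pairs in HET and not called in 1 pair in HOM, and the Cajal-Retzius list was represented by Reln alone. The part of these transcripts in the differences of the members was not tested, and leaving out cells with at least 2 excitatory markers changed the Maf and Npas1 log2 ratios of HOM in Int1 only to -0.80 and 1.81.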

How the data were processed

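Prefrontal cortices of newborn mice were dissociated, fixed in methanol and profiled with the 10x Genomics Chromium 5' kit, 1 library per genotype. Per the labels, the submitters' processing notes name Cell Ranger 4.0.0, Seurat 4.0 and mm10. The authors kept cells by their number of genes and mitochondrial content, removed blood cells, and transferred cell types from a published reference. The deposited cell by gene values are a score: whole numbers that the authors corrected for depth, since totals per cell ran from 825 to 1952 while the deposited molecule counts per cell (nCount_RNA, raw counts) ran from 499 to 17602, and both were equal in 617 of 36263 cells. The correction method was not stated in the sources used here. Because it rounds values, it can change low levels. The deposited percent of mitochondrial molecules served only as a library check, and the deposited fraction that gives the probability of the transferred type was used as a filter in 1 alternative. The deposited tables of the authors' own comparisons (log2 fold change, p, adjusted p and shares of cells per gene) were not used. No step to remove doublets was stated in the sources used here. None was added, and cells with at least 2 excitatory markers were left out as an alternative.

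Levels, shares with exact Clopper-Pearson intervals and log2 ratios were computed with Python 3.11.15, pandas 2.3.3, numpy 2.4.6, scipy 1.17.1 and matplotlib 3.10.9, after the ratio step was tested on simulated data. Ratios required a summed value of at least 50 over both libraries and at least 100 cells in each; a ratio of at least 1.5-fold was called. With 1 library per genotype no p-value was computed. The 9 members and 15 gene lists (113 of 115 genes in the table) were chosen with earlier results of these data known. Named genes are all members, genes from among the 4 per list with the largest absolute mean log2 ratio and the 3 genes most like each member. Some genes that this rule names are not reported here. Alternatives covered scaling, genes in the total, weight of cells, minimum sum, depth, sex, probability of the type, shares in place of levels and the types included. Gene coordinates are from GENCODE on GRCm38, the build named mm10, and promoters from RefSeq. Dlx5 and Maf promoters were not used here.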

Additional observations from a re-analysis of the deposited data

How the results depend on the processing

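No paired analysis was possible because the 4 runs that share numbers across genotypes were merged into 1 library per genotype, so no library has a replicate. The counts of member pairs depended on the filters. In HET, the 3 pairs called higher became 5 with a minimum sum of 20, 0 with a minimum sum of 100, 0 with only cells of at least 2000 molecules and 1 with shares of cells in place of levels, and the 4 called lower became 2 with the deeper cells and 1 with shares. In HOM, the 1 pair called higher became 5 with a minimum sum of 20 and 2 without Xist cells, and the 9 called lower became 5 with the deeper cells, 2 without Xist cells, 3 with shares and 5 with only Int1 to Int4. The number of pairs compared differed between settings. The same counts were not taken over all genes under each setting, so these changes have no background to be set against. The percent of pairs above WT in HET became 50 without Xist cells. The share of Int1 to Int4 cells with a Dlx member, 63.8% in WT, 57.6% in HET and 56.3% in HOM, became 90.3, 87.2 and 85.2% in cells with at least 2000 molecules. Of 85 single ratios, 22 changed sign without Xist cells, as did 11 of 65 with the deeper cells. Under the median of ratios and under equal weight of cells, the 87 ratios moved by at most 0.13 and 0.20 on the log2 scale, but 4 calls were lost and 1 gained under the former and 2 gained under the latter. Using only cells with a Y-linked transcript gave no count, since no type kept 100 such cells in each library. Removal of shared barcodes and of cells with excitatory markers, and the subsets by oligodendrocyte markers, depth bands and combined sex and depth, were chosen after seeing the data. Depth limits the members most in Int2, where the median cell held 759 to 806 molecules.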

Other observations

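Outside the 7 inhibitory types, Npas1 and Adarb2 also differed between libraries. Npas1 in the Oligodendrocytes type was 58.0 ppm in WT, 92.5 in HET and 123 in HOM (log2 ratios 0.67 and 1.09), so WT was lowest and HOM highest, whereas in Int1 WT and HET were equal. The share of oligodendrocyte-type cells with Npas1 was 6.64, 9.22 and 12.6%, while their median depth was 1282, 1382.5 and 2260 molecules. Adarb2 in the deep-layer type LayerV-VI [12-P] was 108 ppm in WT, 110.0 in HET and 72.9 in HOM, and it was found in 8.27 to 11.6% of those excitatory cells.

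Within Int3, Npas1 and Adarb2 were found together more often in HOM than in the other libraries when cells with Adarb2 were taken: 46.2% in WT, 42.0% in HET and 53.6% in HOM held Npas1, against 29.8, 16.0 and 17.8% of cells with Adarb2 at 0. No test of this difference was possible with 1 library per genotype. The cells with Adarb2 numbered 158 in WT, 162 in HET and 237 in HOM, and the levels of both genes rise with depth in Int3. Over all Int3 cells, 110 of 282 in WT, 93 of 318 in HET and 163 of 439 in HOM held Npas1, so HOM was not highest there.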
